A study of Mus musculus with 6 samples.

Results

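The genes studied here were the natriuretic peptides and their receptors: Nppa and Nppb, the precursors of atrial and B-type natriuretic peptide, and the receptor genes Npr1, Npr2 and Npr3. Every non-control probe carrying 1 of these 5 gene names was taken, on every array, which gave 8 of the 41174 probes and 4 of the 29742 gene names. Nppb had 2 probes, Npr1 had 1, Npr2 had 3 and Npr3 had 2, while no probe carried the name Nppa. The set was chosen by measured values, as Nppb stood at the lower end of the wild type treatment comparison and was bright in Cy3 and dim in Cy5, so every value of that comparison is given below as a description and without a p-value.

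Primary embryonic fibroblasts at embryonic day 15 were compared on 6 Agilent 2-colour arrays, on each of which a Cy3-labelled and a Cy5-labelled RNA competed for the same spots. Wild type cells (WT) and WS cells, in which part of the helicase-coding region of Wrn, the mouse Werner syndrome gene, is deleted in frame, came from mice of a mixed 129/Sv and Black Swiss background. On 2 arrays, WT cells given 0.5 mM hydrogen peroxide (H2O2) for 1 h and harvested 24 h later were in Cy5, with untreated WT cells in Cy3 (replicates 1 and 2). Another 2 arrays held the same comparison in WS cells (replicates 1 and 2). The remaining 2 paired untreated WT with untreated WS cells and held no peroxide-treated RNA in either dye (replicates 3 and 4). No array had the dyes exchanged, so peroxide and Cy5 cannot be told apart within the 4 treatment arrays. The labels describe the 2 arrays of a comparison as biological replicates.

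Natriuretic peptides are hormones that heart muscle releases when it is stretched, and Nppb is a widely used marker of cardiac load. Npr1 and Npr2 are receptor guanylyl cyclases: Npr1 answers the atrial and B-type peptides, Npr2 answers the C-type peptide that drives bone growth, and both make cyclic GMP. Npr3 has no cyclase domain and takes up all the peptides for degradation.

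Nppb and Nppa are neighbours on mouse chromosome 4 in the RefSeq gene table (GRCm38.p6). The promoter windows of this pair are shown because Nppb carried the largest differences of the set and Nppa is its neighbour with no probe of its name. Each line holds 30 bases of the RefSeq promoter (GRCm38.p6, plus strand), 5′ to 3′, with TATAAA or GATAA in capitals.
Nppb, chr4:147985861-147985890: agccccagTATAAAaggcagaggcaccgtt
Nppb, chr4:147985798-147985827: atgcagctGATAAatcagaGATAAccccac
Nppa, chr4:148000705-148000734: tggggggcTATAAAaacgggagatgctggc
Nppa, chr4:148000593-148000622: gccgaactGATAActttaaaagggcatctt
The letters TATAAA, the core of a TATA box, and GATAA, a form of the GATA factor site, were searched on both strands from 250 bases before to 50 bases after each start in the RefSeq promoter table. TATAAA was present in 13.6% and GATAA in 25.4% of 32851 such windows. In Nppb TATAAA began at position -31 and GATAA at -94 and -83, relative to the start that the promoter table uses. That start lies downstream of the first base of the annotated Nppb gene, so both Nppb stretches fall inside the annotated gene. In Nppa TATAAA began at -9 and GATAA lay at -121 and, on the other strand, at -75. Neither motif was found in the table's windows of Npr1, Npr2 or Npr3.

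Cy5 was the weaker dye on every array: its median signal above local background was 10.6 to 38.5 units, against 62.2 to 257 units in Cy3. From 41.5% to 69.2% of spots were well above background in Cy5, and 75.8% to 90.0% in Cy3. Outlier spots, which were left out, made up 22.6% of WT replicate 2, 8.81% of WS replicate 2 and 0.400% to 3.25% of the other arrays. The labels put untreated WT in Cy5 on replicates 3 and 4, whereas the study's supplementary table of that comparison, read by its sign, puts WS there. Ratios are therefore given as Cy5 over Cy3, and fits that need the genotype of a dye are given under both readings. Over 8057 probes, which are not independent of each other, the ratios of the untreated arrays correlated at r = 0.758 with the WS minus WT difference inside the Cy3 channels of the treatment arrays, and 98.5% of the 201 probes with a log2 ratio beyond 2 in size had the same sign in both. That sign is the one that WS in Cy5 would give, and it is opposite to the labels. The groups still follow the labels.

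The brighter Nppb probe (A_51_P426195, NM_008726) was strong in Cy3 and weak in Cy5 on all 6 arrays, the 2 without peroxide included. On WT replicates 1 and 2 its signal above background was 4339 and 4990 units in Cy3 against 27.4 and 88.0 units in Cy5. On WS replicates 1 and 2 it was 1086 and 1016 units in Cy3 against 63.3 and 17.7 units in Cy5. On untreated replicates 3 and 4 it was 5460 and 1788 units in Cy3 against 84.8 and 59.6 units in Cy5. Both dyes were well above background on every array, no spot was saturated or an outlier, and the lowest Cy3 signal exceeded the highest Cy5 signal. In Cy5, the peroxide-treated RNAs spanned 17.7 to 88.0 units and overlapped with the untreated RNAs of replicates 3 and 4.

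**Figure D1:**
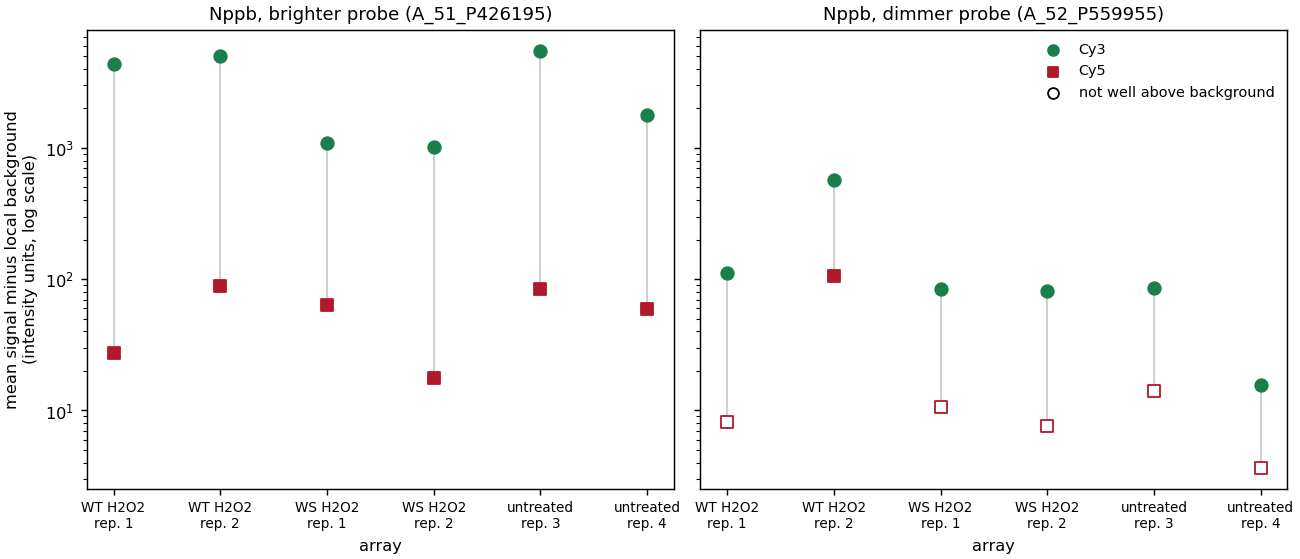
Signal above local background (intensity units, log scale) of the 2 Nppb probes on the 6 arrays, with Cy3 as green circles and Cy5 as red squares; grey lines join the dyes of 1 array and open symbols were not well above background. The brighter probe lay between 1016 and 5460 units in Cy3 and between 17.7 and 88.0 units in Cy5, whether or not the Cy5 RNA came from peroxide-treated cells.

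After loess normalization, which removes the general weakness of Cy5, the log2 ratio of the brighter Nppb probe was -4.61 and -3.49 on the WT arrays. It was -2.79 and -3.15 on the WS arrays and -3.86 and -2.56 on the untreated arrays. All 6 ratios were far below 0, those of the untreated arrays overlapped with both treatment comparisons, and both WS ratios lay above both WT ratios. The fitted ratio was -4.05 (SE 0.36, n = 2 arrays) in WT cells, the value that led to the choice of these genes. It was -2.97 in WS cells (SE 0.36, n = 2 arrays, limma adjusted p = 0.155 over all probes) and -3.21 on the untreated arrays (SE 0.36, n = 2 arrays, limma adjusted p = 0.0031), a 9.26-fold lower Cy5 signal between 2 untreated RNAs. The probe was also chosen for being dim in Cy5, so p-values of its ratios give no independent support. The WS ratio passed the threshold once either untreated array was left out of the shared estimate of spread (limma adjusted p = 0.00013 without replicate 3 or without replicate 4). The WS response minus the WT response, in which a constant preference for a dye cancels, was 1.08 on the log2 scale (SE 0.51), with 0.52 left without WT replicate 1 and 1.64 without WT replicate 2.

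As a description of the values for which the brighter Nppb probe was chosen, its ratios were set beside those of other probes. Of 27041 probes with a ratio on all 6 arrays, 7.90% were below 0 on every array and 2 were below -2 on every array. Nppb was among these 2, a place that its choice fixed and that supports nothing further. Before any normalization, probes within 0.5 log2 units of its Cy3 signal had median Cy5 over Cy3 ratios of -1.22 to -2.75 on the log2 scale, against -4.10 to -7.31 for Nppb. On each array 0.207% to 1.39% of those 484 to 1336 probes had a ratio as low.

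**Figure D2:**
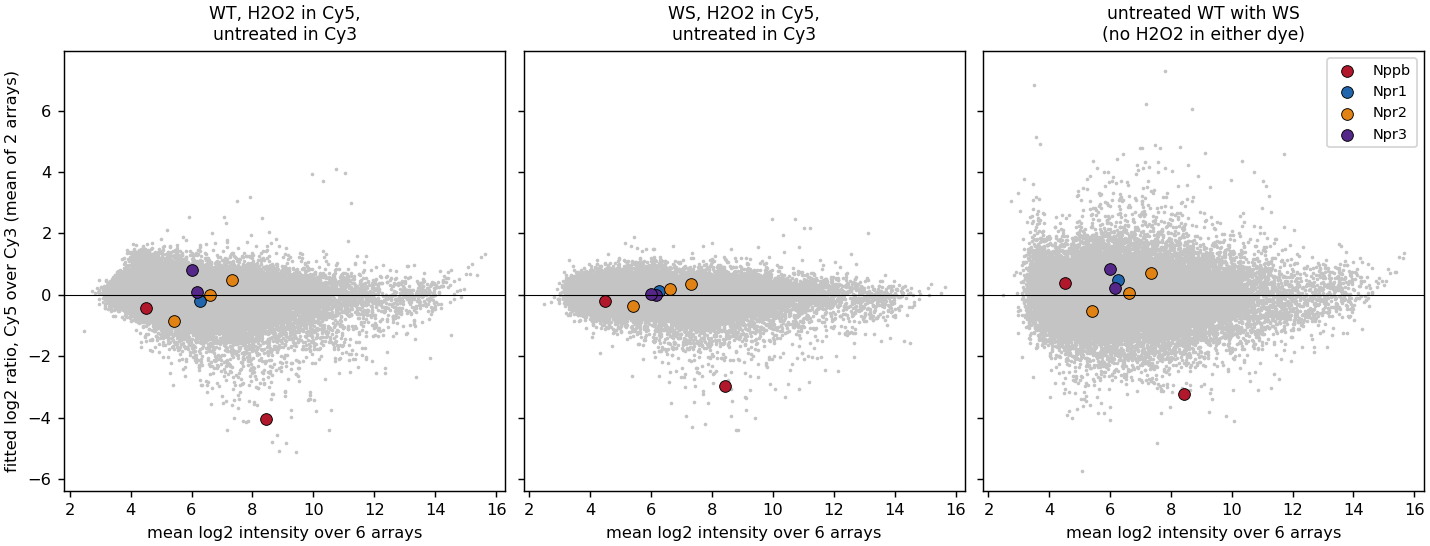
Fitted log2 ratio (Cy5 over Cy3) of all probes (grey) against mean log2 intensity for the 3 comparisons, with the 8 probes of Nppb, Npr1, Npr2 and Npr3 in colour; each value is the mean of 2 arrays, or of 1 where the other spot was an outlier. The brighter Nppb probe lay at -4.05, -2.97 and -3.21, and the 7 others lay between -0.84 and 0.86.

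Treating each dye of each array as its own measurement gave a further view of Nppb. After loess and quantile normalization across arrays, its log2 level in Cy3 was 10.33 and 10.73 in untreated WT RNA, 9.68 and 9.77 in untreated WS RNA, and 10.70 and 9.61 on the untreated arrays. In Cy5 it was 5.72 and 7.24 in treated WT RNA, 6.89 and 6.62 in treated WS RNA, and 6.84 and 7.04 on the untreated arrays. Every Cy3 level thus lay above every Cy5 level, while in Cy5 the treated and untreated RNAs overlapped. Within Cy3, untreated WT lay above untreated WS on the treatment arrays, but with outlier spots kept these overlapped (10.44 and 9.97 against 10.00 and 9.73).

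In a fit over all 12 channels with a term for the dye, the estimate of that term was larger in size than the peroxide estimates of Nppb. These terms were not tested against each other. With WS in Cy5 the interval of the dye term overlapped with that of the WT peroxide difference. With WT in Cy5 on the untreated arrays, as the labels give it, Cy5 lay 3.76 below Cy3 (log2 difference -3.76, SE 0.61, 95% confidence interval -5.07 to -2.45). With WS in Cy5 the term was -2.65 (SE 0.57, interval -3.88 to -1.42). These are values for which the probe was chosen, and their intervals are not adjusted over probes: adjusted over the 27041 probes fitted, the limma p of the term was 0.033 under the labels and 0.567 under the other reading. The dye term was called for 990 of those probes under the labels and for 0 under the other reading. The peroxide difference of WT cells that remained was -0.30 (interval -1.60 to 1.01) under the labels and -1.36 (interval -2.81 to 0.09) under the other reading. For WS cells it was 0.74 (interval -0.77 to 2.25) and -0.33 (interval -1.56 to 0.90), with limma adjusted p = 0.637 and 0.869. Under either reading limma called 0 of 27041 probes for that WS difference. All 4 peroxide intervals included 0 and were wide, so they left room for sizeable changes in either genotype. With the same term the WS minus WT difference of untreated Nppb was -0.59 (interval -1.83 to 0.64, limma adjusted p = 0.975) under the labels and -0.61 (interval -1.76 to 0.53, adjusted p = 0.627) under the other reading. For this genotype difference limma called 0 of 27041 probes under the labels and 405 under the other reading. Both intervals included 0 and were wide, so the size of a genotype difference stays uncertain.

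**Figure D3:**
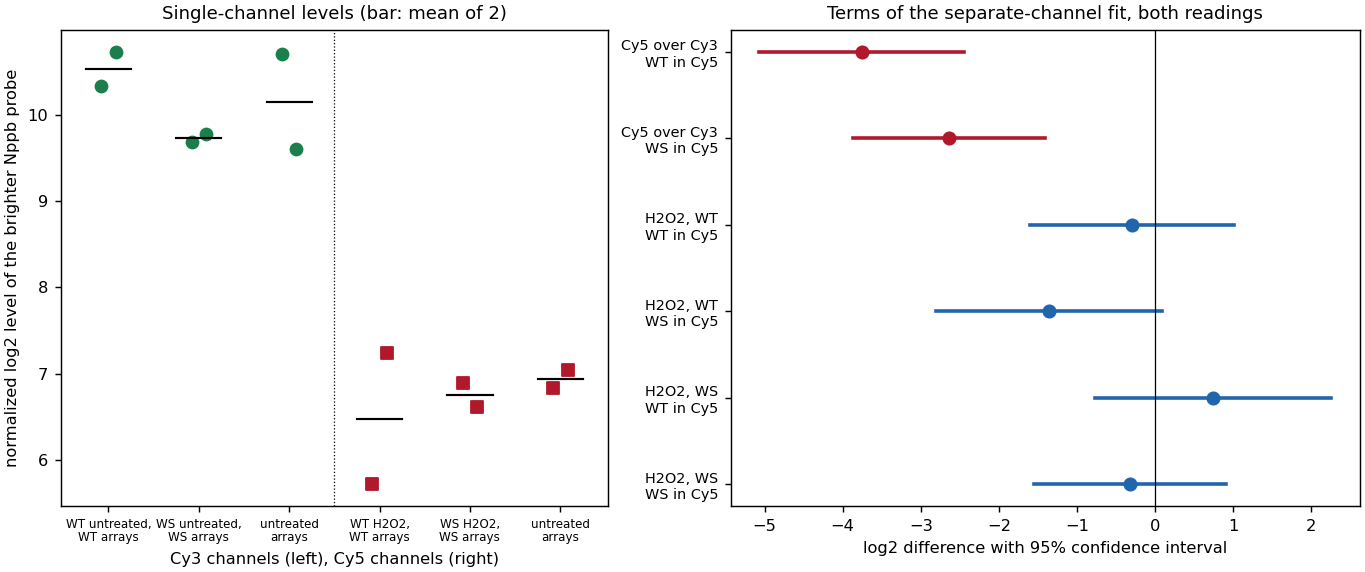
Left, normalized log2 level of the brighter Nppb probe in each of the 12 channels, Cy3 in green and Cy5 in red, with bars at the mean of 2 arrays. Right, log2 differences with 95% confidence intervals from the separate-channel fit, with WT or WS in Cy5 on the untreated arrays: the dye terms were -3.76 and -2.65, and the 4 peroxide intervals crossed 0.

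The dimmer Nppb probe (A_52_P559955), made for the same transcript, did not share this pattern. Its signal in Cy3 was 111 and 569 units on the WT arrays, 84.7 and 81.0 units on the WS arrays, and 85.8 and 15.6 units on the untreated arrays. In Cy5 it was well above background on 1 of 6 arrays only (WT replicate 2, at 105 units), and that spot was an outlier in the file. Its log2 ratios were -0.42 on WT replicate 1, -0.15 and -0.22 on the WS arrays, and 0.08 and 0.70 on the untreated arrays, so they fell on both sides of 0. With Cy5 near background these ratios are weak measurements, and the probe's WS and untreated ratios did not pass the test (limma adjusted p = 0.775 and 0.225).

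For Nppa, the precursor of atrial natriuretic peptide, the nearest measurement was a probe named LOC230899 (A_52_P580582), whose number is the gene ID of Nppa in the RefSeq table. It lies outside the 8 probes and was looked up after the array names were seen. Its signal above background was 1225 and 1149 units in Cy3 and 183 and 216 units in Cy5 on the WT arrays, where both spots were outliers and gave no ratio. On the WS arrays its log2 ratios were 0.00 and 0.29, and on the untreated arrays 0.23 and 0.31. Kept as outliers, the WT ratios were -0.08 and -0.10, so this probe stayed within 0.4 of 0 on all 6 arrays. Its ratios in WS cells (0.15, SE 0.17) and on the untreated arrays (0.27, SE 0.17) did not pass the test (limma adjusted p = 0.789 and 0.303).

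**Figure D4:**
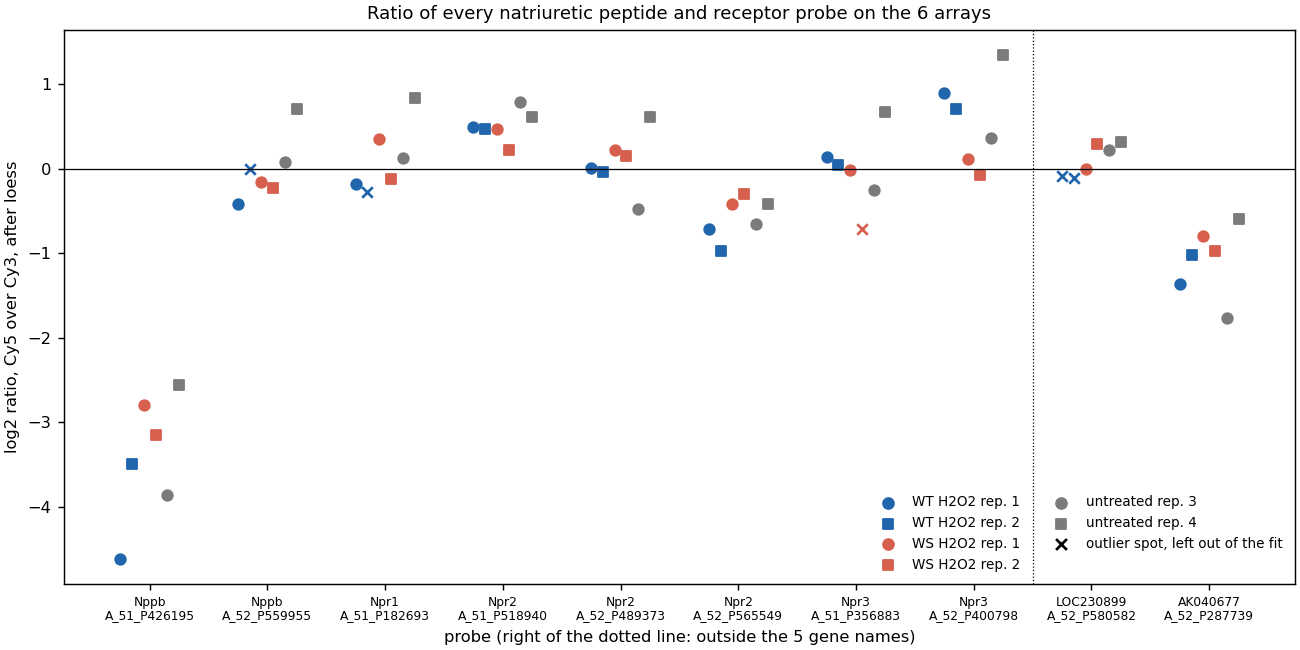
Log2 ratio (Cy5 over Cy3, after loess) of the 8 probes and, right of the dotted line, of the LOC230899 and AK040677 probes on each of the 6 arrays; crosses are outlier spots left out of the fits. The brighter Nppb probe lay between -4.61 and -2.56, A_52_P565549 of Npr2 was below 0 and A_51_P518940 of Npr2 above 0 on every array.

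Npr1, the receptor for the atrial and B-type peptides, was measured by A_51_P182693, which was well above background in both dyes on all arrays. Its Cy3 signal was 203 and 419 units on the WT arrays, 129 and 189 units on the WS arrays, and 244 and 142 units on the untreated arrays. Its log2 ratio was -0.18 on WT replicate 1 (replicate 2 was an outlier spot), 0.35 and -0.12 on the WS arrays, and 0.12 and 0.84 on the untreated arrays. The single WT ratio lay below the other 4, the WS and untreated ratios overlapped, and neither the WS ratio (0.12, SE 0.24) nor the untreated ratio (0.48, SE 0.24) passed the test (limma adjusted p = 0.893 and 0.199).

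The 3 probes of Npr2, the receptor for the C-type peptide, disagreed in sign. A_51_P518940 had log2 ratios of 0.50 and 0.47 on the WT arrays, 0.47 and 0.22 on the WS arrays, and 0.79 and 0.61 on the untreated arrays, all above 0. A_52_P565549 had -0.71 and -0.97, then -0.42 and -0.30, then -0.65 and -0.41, all below 0, so the sign of each of these probes was the same with and without peroxide. A_52_P489373 had 0.01 and -0.04, then 0.23 and 0.15, then -0.47 and 0.62, on both sides of 0. The untreated arrays gave 0.70 for A_51_P518940 (SE 0.16, limma adjusted p = 0.024). That call was lost without any 1 of the 4 treatment arrays (adjusted p = 0.065 to 0.068) and with the day of image extraction as a block (adjusted p = 0.088).

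A_52_P565549 was well above background in Cy5 on 2 of 6 arrays, so part of its ratios rest on signals near background. On both WS arrays Cy5 was not well above background, and its Cy3 level was at least 1.18-fold that of Cy5, set against the lowest signal well above background in Cy5. In WS cells its fitted ratio was -0.36 (SE 0.16, limma adjusted p = 0.442), and on the untreated arrays -0.53 (SE 0.16, limma adjusted p = 0.061, and 0.027 without untreated replicate 4). With a dye term in the fit its WS ratio changed sign under the labels, to 1.13 (SE 0.52).

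Npr3, the clearance receptor, had 2 probes, and a further probe described as Npr3 lay outside the gene name. A_52_P400798, well above background in both dyes on all arrays, had log2 ratios of 0.90 and 0.71 on the WT arrays, 0.11 and -0.07 on the WS arrays, and 0.37 and 1.34 on the untreated arrays. The WT and WS ratios did not overlap, with a WS minus WT difference of -0.78 (SE 0.34) that is given as a description. The untreated ratio of 0.86 (SE 0.24, limma adjusted p = 0.048) was lost without untreated replicate 4 (0.37, adjusted p = 0.183), without any 1 treatment array (adjusted p = 0.088 to 0.110) and with the extraction day as a block (adjusted p = 0.084).

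A_51_P356883 of Npr3 had log2 ratios of 0.14 and 0.05 on the WT arrays, -0.02 on WS replicate 1 (replicate 2 was an outlier spot), and -0.26 and 0.67 on the untreated arrays. The untreated ratio of 0.21 (SE 0.25, limma adjusted p = 0.584) changed sign without replicate 4. That further probe, which the array names AK040677 (A_52_P287739) was below 0 on all 6 arrays: -1.36 and -1.02 on the WT arrays, -0.79 and -0.97 on the WS arrays, and -1.76 and -0.59 on the untreated arrays. Its untreated ratio was -1.18 (SE 0.28, limma adjusted p = 0.028), opposite in sign to that of A_52_P400798. The probes of Npr3 thus gave no single direction.

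Counted over the 8 probes, 1 was called in WT cells at an adjusted p under 0.05, beside 0.258% of the 40303 probes tested. That 1 was the brighter Nppb probe, for which the set was chosen, so its choice fixed this count, which supports nothing. At an unadjusted p under 0.05 there were 4, beside 20% of all probes, a count that the choice of Nppb fixes in part. In WS cells limma called 0 of 8, beside 0% of 41052 probes, and 1 of 8 at an unadjusted p under 0.05, beside 12% of all probes. On the untreated arrays 3 of 8 were called, beside 19.6% of 41099 probes: Nppb lower in Cy5, and 1 probe each of Npr2 and Npr3 higher in Cy5. At an unadjusted p under 0.05 they numbered 4, beside 35.9% of all probes, and at the study's stricter thresholds (adjusted p under 0.005 and mean log2 intensity over 6) 1, beside 1.8% of all probes. The choice of Nppb bears on these untreated counts too. In the WS minus WT difference 0 of 8 were called by limma, beside 0% of 40267 probes, and 0 of 8 were under an unadjusted p of 0.05, beside 5.94% of all probes. The untreated count was 1 without any single treatment array, and it rose without untreated replicate 3, which leaves 1 array in that comparison. The share of all probes called in those fits is not given here, so those counts cannot be set against it. The median log2 ratio of the 8 probes was -0.10, 0.00 and 0.30 in WT cells, WS cells and the untreated arrays, beside -0.01, 0.01 and -0.00 over all probes.

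Of 30 other genes of peptide processing and cyclic GMP signalling, 28 had a probe, and each was described by its brightest one. In WT cells 2 of 27 tested were called, beside 0.258% of all probes, as a description: Gucy1b3, a subunit of the soluble guanylyl cyclase that senses nitric oxide, was lower and Abcc4, an exporter of cyclic nucleotides, was higher in Cy5. Gucy1b3 (A_52_P592835) had log2 ratios of -2.92 and -2.96 on the WT arrays, -2.42 and -1.98 on the WS arrays, and -3.23 and -2.37 on the untreated arrays. Its Cy5 signal was well above background on 1 of 6 arrays, so that Cy3 was at least 7.52-fold above Cy5 in WT and at least 3.88-fold in WS cells. Abcc4 (A_52_P630867) had 1.50 and 1.44, then 0.30 and 0.33, then 1.74 and 1.31, again with 1 sign on all 6 arrays.

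In WS cells 0 of these 28 genes were called by limma, beside 0% of all probes, and 4 were under an unadjusted p of 0.05, beside 12%. On the untreated arrays 3 were higher and 5 lower in Cy5, beside 9.83% and 9.78% of all probes, with a median log2 ratio of -0.25 against -0.00 over all probes. The 3 higher genes were the exporters Abcc4 (1.52, SE 0.17, limma adjusted p = 0.0030) and Abcc5 (1.35 on 1 array, SE 0.25, adjusted p = 0.023) and the phosphodiesterase Pde3a (1.76, SE 0.24, adjusted p = 0.0056). The lower genes were Gucy1b3 (-2.80, SE 0.23, limma adjusted p = 0.0014) and its partner Gucy1a3 (-1.32), the phosphodiesterase Pde1a (-1.04), the retinal cyclase Gucy2f (-1.62) and the cyclic GMP-dependent kinase Prkg1 (-0.93, limma adjusted p = 0.020). All 4 probes of Pde1a were called in the same direction (-0.95 to -1.89), whereas the other Prkg1 probe was called in the opposite one (1.12, limma adjusted p = 0.0086). In the WS minus WT difference limma called 0 of 27, beside 0% of all probes, with 4 under an unadjusted p of 0.05, beside 5.94%. The other probes of Abcc4 (0.09), Gucy1b3 (0.19 and 0.24) and Gucy1a3 (0.21 and -0.08) were not called.

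A list of 24 genes, made up of heart genes and possible regulators of Nppb, was measured in full. In WT cells 0 of 24 were called by limma, with 4 under an unadjusted p of 0.05 beside 20% of all probes, and in WS cells 0 of 24, with 5 beside 12%. On the untreated arrays 1 was higher and 6 were lower in Cy5, beside 9.83% and 9.78% of all probes. The higher gene was Agt, which encodes angiotensinogen (1.79, SE 0.20, limma adjusted p = 0.0029). The lower ones were the transcription factors Tbx5, Srf, Tead1, Mef2a and Mef2c and the peptide gene Edn1, which encodes endothelin 1. The ratio was -1.10 for Srf, on 1 array only, -1.01 for Tead1, -0.88 for Mef2a and -0.79 for Mef2c. The Cy5 signal of Mef2c was not well above background on untreated replicate 4. For Tbx5 the fitted ratio was -2.51 (SE 0.21, limma adjusted p = 0.0014), and as its Cy5 signal was not well above background on either array, Cy3 was at least 5.54-fold higher. For Edn1 the fitted ratio was -1.48 (SE 0.33, limma adjusted p = 0.024). Its Cy5 signal was not well above background on either array either, so that ratio is an estimate and not a bound. The main GATA factor of the heart, Gata4, had a ratio of -0.15 on the untreated arrays and -0.02 in WS cells, and Ankrd1, a stretch-responsive heart gene, had -0.41 and -1.15, none of which was called. Acta1, the skeletal muscle actin that the loaded heart also makes, had a ratio of -2.25 in WS cells (SE 0.18, limma adjusted p = 0.155, as for Nppb), -1.13 in WT cells on 1 array and 0.08 on the untreated arrays (SE 0.18, adjusted p = 0.785), where it thus lacked the low Cy5 ratio of Nppb. In the WS minus WT difference limma called 0 of 24, beside 0% of all probes, with 1 under an unadjusted p of 0.05, beside 5.94%.

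The genes most like Nppb were taken from 5341 RefSeq probes by Pearson correlation over the 12 channels, which share arrays and dyes. The 5 highest were Rassf4 (r = 0.969), Gucy1b3 (r = 0.969), 4932408B21Rik, now Iqub (r = 0.962), A930017E24Rik, now Flad1 (r = 0.959), and Gapds, now Gapdhs (r = 0.953). Of the 5341 probes, the brighter Nppb probe itself included, 31 passed 0.9. Each matched probe was lower in Cy5 on all 6 arrays, from -0.94 at the highest to -4.59 at the lowest. A choice by likeness to Nppb, whose Cy3 levels all lay above its Cy5 levels, favours such ratios, so they are a description only. In Gapds the Cy5 signal was not well above background on either WS array, so its ratio there (-2.67, SE 0.71) is an estimate and not a bound. Apart from 4932408B21Rik, which had 1 probe, these genes had 9 other probes, whose fitted ratios in the 3 comparisons lay between -0.39 and 0.92. Of these 9, 8 were dim, with a mean log2 intensity of 3.89 (Rassf4) to 4.62 (Gucy1b3), and 1, of Gapds, was bright at 12.12. As each gene was picked through the 1 probe that tracked Nppb, a less extreme ratio in its other probes follows in part from that choice.

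**Figure D5:**
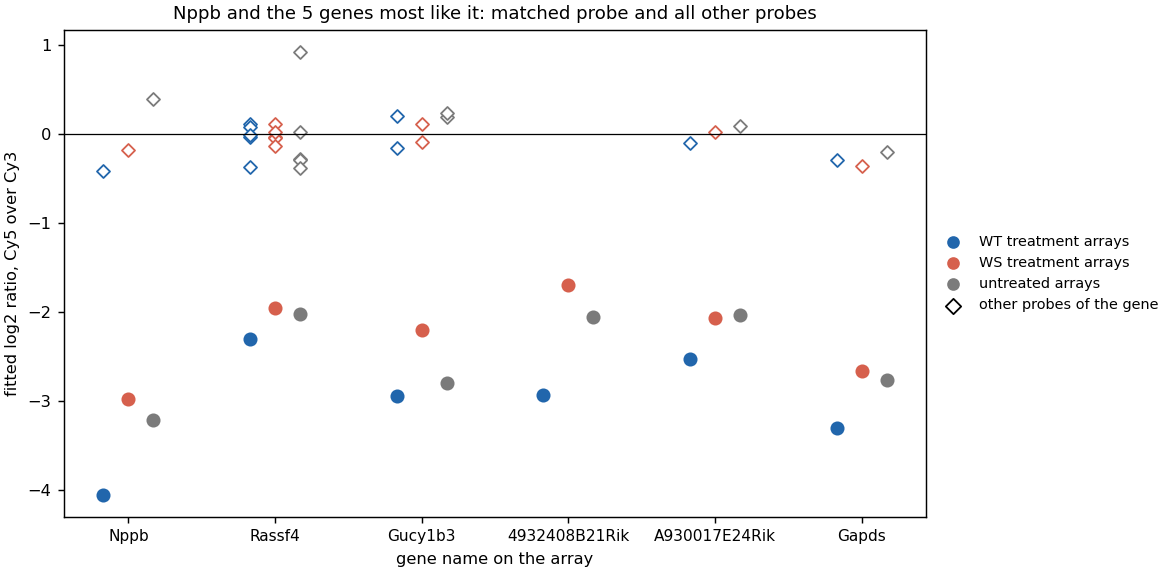
Fitted log2 ratio (Cy5 over Cy3) of the matched probe (filled circles) and of every other probe (open diamonds) of Nppb and of the 5 genes most like it, in the WT treatment, WS treatment and untreated comparisons. Matched probes of the 5 genes lay between -3.30 and -1.70, and their 9 other probes between -0.39 and 0.92.

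The cultures carried fibroblast markers, with 12 of 12 well above background in Cy3 on all 6 arrays and 11 of 12 in both dyes. Of 12 cardiomyocyte markers 11 were well above background in Cy3 on all arrays and 5 in both dyes (Myh6, Tnni3, Myl3, Ryr2 and Actc1), while Pln was above it in Cy5 on none. Tnnt2 and Myl4 were above it in Cy5 on 5 arrays, Myh7 and Myl2 on 2, and Myl7 and Nkx2-5 on 1. On each array 75.8% to 90.0% of all spots were well above background in Cy3. So were 6 of 8 skeletal muscle, 5 of 6 macrophage, 4 of 5 chondrocyte, 4 of 5 neural, 3 of 6 endothelial and 3 of 4 epithelial markers on all arrays. The share of all spots above background on all 6 arrays, in Cy3 or in both dyes, is not given here, so the marker counts cannot be set against it. The summed Cy3 signal of the cardiomyocyte markers, before normalization, was 25064 to 31623 units on the WT arrays, 6360 to 7051 units on the WS arrays and 14931 to 27115 units on the untreated arrays. That of the fibroblast markers was 267855 to 287903, 112987 to 132602 and 210208 to 281996 units. Both sums, like the Cy3 signal of Nppb, were higher on both WT than on both WS arrays, as were those of the 6 other marker lists and the median Cy3 signal of all probes (177 and 257 units against 101 and 97.0 units), and their part in the Nppb levels was not tested. In these bulk RNAs, fewer cells of a type and less RNA per cell cannot be told apart. In WS cells limma called 0 of 12 cardiomyocyte markers, with 1 under an unadjusted p of 0.05, beside 0% and 12% of all probes. On the untreated arrays limma called 1, Tnnt2 (-1.17, limma adjusted p = 0.0059). Of the 11 fibroblast markers tested there, 6 were higher and 1 lower in Cy5, beside 9.83% and 9.78% of all probes. Of the 5 chondrocyte markers 1 was higher and 2 were lower, of the 5 neural markers 1 was higher, and of the 4 epithelial markers 1 was lower. None of the 8 skeletal muscle, 6 endothelial and 6 macrophage markers was called, with 2, 0 and 1 under an unadjusted p of 0.05, beside 35.9% of all probes. In WS cells limma called none of these 7 lists' markers, with 1 fibroblast, 1 skeletal muscle and 1 chondrocyte marker under an unadjusted p of 0.05, beside 0% and 12% of all probes.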

How the data were processed

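RNA of primary embryonic fibroblasts was hybridized to 6 whole-genome 2-colour arrays of 60-base probes, 2 per comparison, 1 array for each labelled replicate. Per the labels the extract was total RNA, while the study's methods name cytoplasmic RNA. The authors deposited scanner files of Feature Extraction 7.5.1 per the file headers, a version other than the methods name. They hold intensity values (mean signal and local background of each dye), flags, and a log10 ratio of Cy5 over Cy3, which the authors' software had dye-normalized. The authors also deposited a table of log2 ratios, whose scale and direction matched the ratios computed here (r of at least 0.999 on each array, medians of 0.002 to 0.018).

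Each dye's mean signal was taken above its local background, and ratios underwent loess normalization within each array, as in the study's methods, with control and outlier spots at weight 0 and outlier spots left out. Log2 ratios were fitted with limma 3.58.1 (lmFit, eBayes; R 4.3.3, data.table version 1.17.8), with 1 coefficient per comparison over the 6 arrays and the Benjamini-Hochberg adjustment over all probes. A call is an adjusted p under 0.05. Channels were fitted with lmscFit after loess and Aquantile normalization, on 27041 probes with values on all arrays. Plots came from matplotlib 3.10.9 with pandas 2.3.3 under Python 3.11.15. The scripts were tested on simulated data. The number of arrays limits the precision, and p-values measure only the spread between these arrays.

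Where a dye was not well above background on either array of a comparison, the bound given as "at least" takes the higher of the probe's own level and the lowest level well above background in that dye, after loess and Aquantile normalization, and it is open to dye bias. Where the probe's own level was the higher on both arrays, that bound is the fitted ratio itself, so none is given.

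Named genes were all probes of the 5 genes, the called genes of the pathway and regulator lists, and the 5 genes most like Nppb over the 12 channels. A listed gene was represented by its brightest probe. The members and lists were chosen with earlier results of these data known. Current symbols came from RefSeq, where 15402 of 16369 accessions matched. Promoter sequences came from RefSeq (GRCm38.p6), and the array files name no genome build. Same-numbered WT and WS arrays did not deviate together (r = -0.05 over 27041 probes), so the numbers were treated as names. Alternatives were normexp background correction, median centring, outlier spots kept, the deposited ratios, separate fits, a filter on dim probes, the study's thresholds, the replicate block, each array left out, and a dye term. The day of image extraction as a random block, and the dye term with outlier spots kept, were chosen after seeing the data.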

Additional observations from a re-analysis of the deposited data

How the results depend on the processing

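The untreated Nppb ratio kept its direction and its call under the 14 alternatives without a dye term (adjusted p 4.0e-05 to 0.040). With a dye term the genotype difference of untreated Nppb, WS minus WT, was -0.59 (labels) and -0.61 (table), adjusted p = 0.975 and 0.627, and with outlier spots kept -0.098 and -0.41, adjusted p = 1.00 and 0.702. With each array left out the Nppb ratio was -4.61 to -3.49 in WT cells, -3.15 to -2.79 in WS cells and -3.86 to -2.56 on the untreated arrays, and the WS minus WT difference was 0.52 to 1.64. The WS ratio became a call with median centring (-2.22, adjusted p = 0.044), on its own 2 arrays (-2.97, adjusted p = 2.1e-08) and without either untreated array. Its adjusted p ran from 2.1e-08 to 1.00 over its alternatives. Because the probe was chosen for being dim in Cy5, p-values of its WS and untreated ratios are no independent support. A dye term moved the WT ratio to -0.30 and -1.36 (labels and table) and, with outlier spots kept, to -0.82 and -1.32. Under the labels, whose direction is opposite to the sign of the same-dye genotype differences, it reversed the WS ratio to 0.74, and to 0.23 with outlier spots kept. The dye term of Nppb itself was -4.20 to -3.42 (labels) and -2.98 to -2.22 (table) with each array left out, and -6.03 and -3.89 with no normalization. With the replicate number as a block the WS minus WT difference was 1.08 (SE 0.55, adjusted p = 1.00) and no call changed.

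The count of WS calls among the 8 probes rose from 0 to 1 with median centring and separate fits, and was 0 to 1 with each array left out. The untreated count fell from 3 to 1 with median centring, separate fits, the extraction day as a block and the study's thresholds, and was 1 to 7 with each array left out. In WS cells, signs reversed with a dye term for Npr2 A_52_P565549 (1.13, and 0.751 and 0.0159 with outlier spots kept), Npr2 A_51_P518940 (-0.21, -0.094 and -0.73), Npr2 A_52_P489373 (-0.16), Npr3 A_52_P400798 (-0.79, -0.18, -1.14 and -0.096), Npr1 (-0.70) and the dimmer Nppb probe (0.58). They also reversed without WS replicate 1 for Npr1 and Npr3 A_52_P400798 (-0.12 to 0.35 and -0.072 to 0.11 with each WS array left out), with the deposited ratio for the latter (-0.073), and with median centring for Npr3 A_51_P356883 (0.14). Without untreated replicate 4 the untreated ratio reversed for Npr3 A_51_P356883 (-0.26 to 0.67 with each untreated array left out) and Npr2 A_52_P489373 (-0.47 to 0.62). The cause was not tested. Apart from the study's thresholds, the share of all probes called in the fits behind the counts of calls is not given here. A rise or fall in the counts of WS or untreated calls therefore cannot be read as particular to the 8 probes. A scan day could not be used as a block, as the headers give the day of extraction.

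Dim Cy5 signals limit the dimmer Nppb probe and Npr2 A_52_P565549. Without exchanged dyes, the 4 treatment arrays alone cannot tell peroxide from dye, and the 2 untreated arrays, read in 2 directions, carry the dye term. Each comparison rests on 2 arrays. The untreated arrays were extracted on days of their own, so that day and comparison cannot be told apart for them.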
